A study of Homo sapiens with 18 samples.

Results

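The comparison described here is the effect of E2F1 silencing in androgen-treated LNCaP cells, an androgen-sensitive human prostate cancer cell line. It sets 3 libraries of cells given an siRNA pool against E2F1 beside 3 libraries of cells given a non-targeting control pool, all 6 with the synthetic androgen R1881 at 0.1 nM, out of 18 libraries in the series. All genes in the count table were considered, which gave 58037 identifiers, and the 15185 that passed a filter on low counts were tested. Every group shares the cell line, the androgen-deprived medium with 9% charcoal-stripped serum and the Lipofectamine 2000 transfection. The other libraries hold both pools with vehicle (ethanol) in place of R1881, and a pool against E2F2 with each treatment, in 3 biological replicates per group. RNA was taken 48 h after R1881 or vehicle, which was added 42 h after transfection by the series' design text and 48 h after it by the sample protocol.

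E2F1 is a transcription factor that is held in check by the retinoblastoma protein RB1 until cyclin-dependent kinases phosphorylate RB1, and that then switches on genes for entry into S phase. Its best known targets encode the origin licensing machinery, replication enzymes, nucleotide synthesis enzymes and other E2F and cyclin genes. A separate set of genes needed for mitosis is controlled by the MuvB complexes with B-MYB (MYBL2) and FOXM1, which are themselves made from E2F targets. LNCaP cells respond to androgen, which both induces secretory prostate genes and drives the cells to divide.

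A pool of several siRNAs was used in a single cell line, so effects of the individual siRNAs cannot be told apart from those of the loss of E2F1. Libraries were made with an exome capture kit, which measures RNA that the capture probes reach. Values below are CPM, counts scaled by library size and composition, not divided by gene length, so levels are compared within a gene and not between genes. A gene is called where the Benjamini-Hochberg adjusted p of edgeR's quasi-likelihood test, over all 15185 genes, was under 0.05. Unless said otherwise, fold changes are E2F1 siRNA over control siRNA with R1881 on the log2 scale with their standard error (SE, n = 3 libraries per group). The SE comes from the fit to all 18 libraries, which share the estimate of spread, and not from the compared libraries alone. CPM values of a group are listed from replicate 1 to 3. The strand setting of the counting is not given in the sources used here, so reads of a gene cannot be told apart from those of a tested gene that overlaps it. Among the genes named below this touches FOXM1, CCNA2, CDK2, CDC25C, GINS2, FEN1, RFC5, POLD3, KIF20A, SPAG5, CENPA, NCAPD2, FANCI, CHAF1A, CHAF1B, PMEPA1, LRRN1, PEG3, HERPUD1, PDIA5, ARG2, CDH1, SERPIND1, ANKRD37, MYLK, HIST1H2AM, IFNGR2, IGF2R and NPC1. Other overlaps are given with the genes they touch.

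The 6 libraries held 11646324 to 14819879 counts, within the 10930204 to 14819879 of the whole series. Replicate 3 stood apart in both groups: the correlation across 12687 genes between a library's deviation from the mean and GC content was 0.64 in the E2F1 siRNA replicate 3 and 0.68 in the control siRNA replicate 3, against -0.36 to -0.62 in the 4 libraries of replicates 1 and 2. The fold change itself was nearly flat over GC content (r = -0.05 across those genes, which are not independent replicates). The deviations of same-numbered replicates were positively correlated, but replicate 3 alone stood clearly with its own number. With R1881, replicate 1 correlated at 0.199 with its own number and at 0.211 with another. The fit with the replicate number as a block is given beside results that it changes, though this pairing is not from a stated design. The labelled cell type was checked by its markers: 6 prostate luminal markers (KRT8, KRT18, EPCAM, CDH1, KLK3 and TMPRSS2) were detected in the 6 libraries, with a summed level of 6120 to 6580 CPM in the E2F1 siRNA libraries and 4260 to 4950 CPM in the control siRNA libraries. Of 7 markers of other cell types the leukocyte marker PTPRC and the fibroblast marker DCN had 0 counts in all 6 libraries, and the 7 together summed to 20.6 to 25.2 CPM with E2F1 siRNA and 33.2 to 35.1 CPM with control siRNA, mostly VWF and COL1A1. Of 3 basal markers KRT5 and TP63 had 0 counts, and of 2 neuroendocrine markers CHGA had 0 counts. The basal sums were 1.56 to 2.04 CPM with E2F1 siRNA and 1.29 to 1.54 CPM with control siRNA, and the neuroendocrine sums were 2.05 to 2.34 CPM with E2F1 siRNA and 1.73 to 2.34 CPM with control siRNA.

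The promoters of E2F1 and of genes that carry the main results are shown with matches to sites that E2F, MuvB and interferon-activated factors are known to recognise. Each is the RefSeq window of 300 bases from 250 before to 50 after the start site on GRCh38.p14, on the gene's own strand, 5′ to 3′. They are E2F1 (chr20:33686336-33686635, minus strand), the origin factors MCM10 (chr10:13161308-13161607, plus) and MCM3 (chr6:52284693-52284992, minus), the spindle genes KIF20A (chr5:138178862-138179161, plus) and PRC1 (chr15:90994486-90994785, minus), the interferon-stimulated genes IFI6 (chr1:27672143-27672442, minus) and IFI27 (chr14:94110486-94110785, plus), and ACTA2 (chr10:88991288-88991587, minus) and SPRY4 (chr5:142324198-142324497, minus), which were among the largest rises outside the interferon genes. Capitals mark a match, on either strand, to the E2F site TTTCCCGC or TTTGGCGC, to the cell cycle homology region TTTGAA that MuvB complexes recognise, or to the interferon-stimulated response element (ISRE), which is GAAA, any 2 bases and GAAA.
E2F1: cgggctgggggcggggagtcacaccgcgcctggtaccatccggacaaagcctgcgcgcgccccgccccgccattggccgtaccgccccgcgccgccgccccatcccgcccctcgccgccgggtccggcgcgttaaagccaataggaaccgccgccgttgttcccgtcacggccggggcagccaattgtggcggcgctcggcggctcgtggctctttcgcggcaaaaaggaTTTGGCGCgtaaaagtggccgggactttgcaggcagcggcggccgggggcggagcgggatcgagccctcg
MCM10: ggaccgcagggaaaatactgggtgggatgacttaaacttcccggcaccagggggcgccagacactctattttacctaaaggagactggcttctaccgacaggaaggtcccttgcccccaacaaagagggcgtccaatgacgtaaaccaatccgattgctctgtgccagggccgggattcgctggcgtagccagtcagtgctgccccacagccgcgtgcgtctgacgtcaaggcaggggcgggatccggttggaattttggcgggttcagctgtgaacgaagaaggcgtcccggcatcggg
MCM3: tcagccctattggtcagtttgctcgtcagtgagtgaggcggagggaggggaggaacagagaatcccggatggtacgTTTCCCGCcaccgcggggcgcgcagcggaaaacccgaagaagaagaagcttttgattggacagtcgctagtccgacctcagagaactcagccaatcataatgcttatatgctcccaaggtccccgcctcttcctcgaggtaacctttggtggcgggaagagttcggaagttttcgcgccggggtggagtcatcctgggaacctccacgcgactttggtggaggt
KIF20A: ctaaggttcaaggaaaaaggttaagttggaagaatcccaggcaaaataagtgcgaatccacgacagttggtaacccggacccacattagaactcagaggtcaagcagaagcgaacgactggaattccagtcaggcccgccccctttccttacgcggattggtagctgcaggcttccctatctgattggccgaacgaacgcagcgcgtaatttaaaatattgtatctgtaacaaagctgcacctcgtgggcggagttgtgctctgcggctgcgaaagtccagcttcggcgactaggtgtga
PRC1: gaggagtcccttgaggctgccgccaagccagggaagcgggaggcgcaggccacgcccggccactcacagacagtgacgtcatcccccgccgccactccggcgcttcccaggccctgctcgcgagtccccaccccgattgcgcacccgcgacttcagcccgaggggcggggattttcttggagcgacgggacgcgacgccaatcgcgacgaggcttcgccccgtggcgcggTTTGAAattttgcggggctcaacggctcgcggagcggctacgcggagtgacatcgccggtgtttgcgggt
IFI6: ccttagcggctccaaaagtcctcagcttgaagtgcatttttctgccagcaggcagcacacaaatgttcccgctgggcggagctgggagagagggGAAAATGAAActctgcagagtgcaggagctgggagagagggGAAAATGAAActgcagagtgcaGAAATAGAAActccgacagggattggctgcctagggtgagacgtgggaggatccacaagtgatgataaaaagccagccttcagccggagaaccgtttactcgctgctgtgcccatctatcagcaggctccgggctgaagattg
IFI27: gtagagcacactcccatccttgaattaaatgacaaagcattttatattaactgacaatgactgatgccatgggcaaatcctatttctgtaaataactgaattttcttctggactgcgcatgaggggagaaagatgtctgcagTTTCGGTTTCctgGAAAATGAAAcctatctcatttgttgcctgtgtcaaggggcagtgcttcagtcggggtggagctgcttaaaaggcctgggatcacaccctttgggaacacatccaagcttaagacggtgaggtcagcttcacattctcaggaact
ACTA2: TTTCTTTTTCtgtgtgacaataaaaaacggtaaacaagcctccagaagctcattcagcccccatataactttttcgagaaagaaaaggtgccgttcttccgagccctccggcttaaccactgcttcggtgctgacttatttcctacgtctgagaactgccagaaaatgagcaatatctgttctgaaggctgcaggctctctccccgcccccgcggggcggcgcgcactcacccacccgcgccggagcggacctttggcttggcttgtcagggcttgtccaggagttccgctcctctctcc
SPRY4: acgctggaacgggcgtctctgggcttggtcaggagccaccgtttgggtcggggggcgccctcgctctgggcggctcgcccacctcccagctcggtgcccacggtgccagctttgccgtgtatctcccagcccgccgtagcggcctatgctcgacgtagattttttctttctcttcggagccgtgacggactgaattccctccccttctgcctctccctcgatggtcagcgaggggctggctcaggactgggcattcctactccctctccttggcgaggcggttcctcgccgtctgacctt

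In these windows E2F1 held an E2F match from -20 to -13 and MCM3 held an E2F match from -174 to -167, counted from the start site. PRC1 held a cell cycle homology match from -20 to -15. IFI6 held 3 interferon response matches that began at -156, -115 and -93, IFI27 held matches that began at -108 and -95, and ACTA2 held a match from -250 to -241. A single window was searched per gene, so other start sites were not covered. The ACTA2 window lies at the upstream end of a locus that overlaps FAS on the other strand, and it held no CArG box, the site of serum response factor. Whether its match belongs to ACTA2 or to FAS was not tested. MCM10, KIF20A and SPRY4 held no match to these 3 motifs in the window. Exact words alone were searched, so near matches were not counted and a window without a match may still hold such a site. Of 10729 tested genes with a RefSeq window, 3.73% held an E2F match, 9.45% a cell cycle homology match and 2.7% an interferon response match.

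Shares differed by direction of change. An E2F match was held by 7.69% of the 585 genes called lower with E2F1 siRNA and by 1.92% of the 520 called higher. A cell cycle homology match was held by 17.8% of those called lower and 8.85% of those called higher. Interferon response matches were in 2.05% of the genes called lower and in 5.38% of those called higher. Among the gene lists described below, E2F matches were in 39.1% of 23 origin and MCM genes and 32.0% of 25 replication fork genes, cell cycle homology matches in 76.0% of 25 kinesin and spindle genes and 54.2% of 24 kinetochore genes, and interferon response matches in 71.4% of 35 interferon-stimulated effector genes. A CArG box, the site of serum response factor, was in 1.02% of all windows, 2.88% of those called higher and 0.342% of those called lower, while the androgen response element searched, AGAACA, any 3 bases and TGTTC, was in none of the windows. These shares describe letters in short windows and were not tested.

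**Figure D1:**
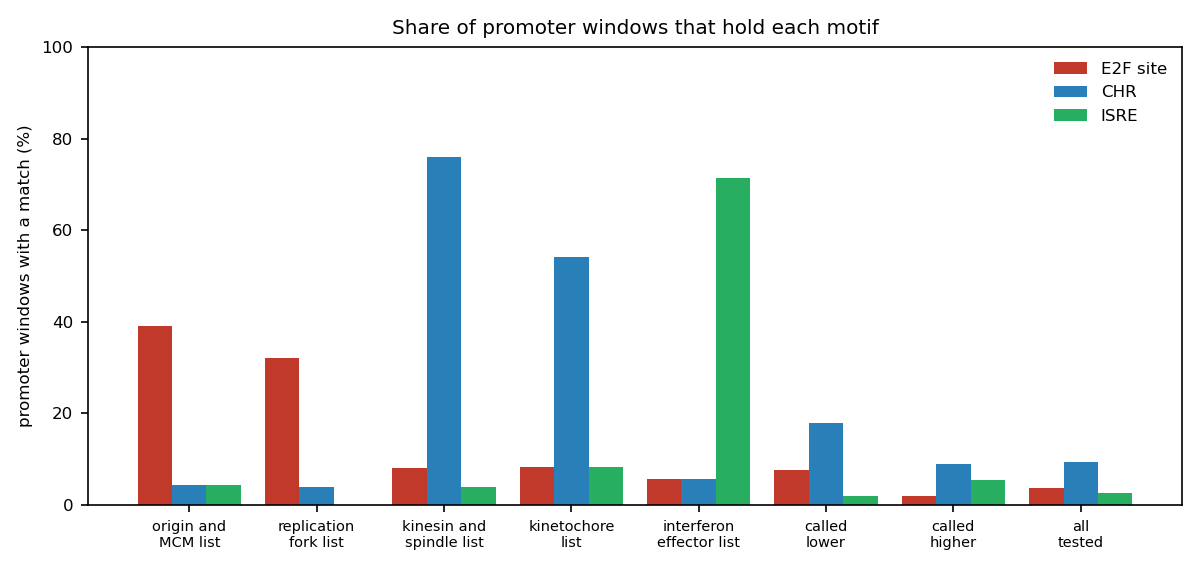
Percent of promoter windows that hold an E2F, cell cycle homology region or interferon response match, in 5 gene lists, for genes called lower and called higher, and among all 10729 tested genes with a window. The spindle and interferon lists stand at 76.0% and 71.4% for their own motif, against 9.45% and 2.7% of all windows.

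The targeted gene was lower in every depleted library. E2F1 (ENSG00000101412.12, chr20:33675683-33686404, minus strand, GRCh38) had 10.1, 8.69 and 10.3 CPM in the E2F1 siRNA libraries, against 73.4, 68.6 and 81.2 CPM in the control siRNA libraries. No E2F1 siRNA library came near a control library. The log2 fold change was -2.94 ± 0.17 (SE, n = 3 per group), or 7.67-fold lower, with adjusted p = 2.5e-07. With vehicle E2F1 stood at 5.79, 5.92 and 8.77 CPM with E2F1 siRNA and 35.2, 33.6 and 43.0 CPM with control siRNA, a log2 fold change of -2.45 (adjusted p = 5.11e-07). E2F1 was itself 1.0 higher on the log2 scale with R1881 than with vehicle in control cells (adjusted p = 0.000173).

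Among the other E2F genes, the atypical repressors E2F7 and E2F8, which bind E2F sites without a DP partner, were lower. E2F7 had 10.6, 12.0 and 9.62 CPM with E2F1 siRNA and 29.6, 29.6 and 23.4 CPM with control siRNA, with no overlap and a log2 fold change of -1.36 ± 0.16 (adjusted p = 5.85e-05). E2F8 had 12.4, 12.3 and 13.8 CPM with E2F1 siRNA and 28.5, 27.1 and 28.8 CPM with control siRNA (-1.13 ± 0.16, adjusted p = 0.000279). TFDP1, the DP1 partner of the activating E2Fs, was lower by a smaller amount, with 67.6, 70.4 and 75.1 CPM against 92.2, 94.3 and 95.9 CPM in control siRNA libraries (-0.41 ± 0.09, adjusted p = 0.0073). MYBL2 and FOXM1 also fell: MYBL2 to 77.6, 78.1 and 85.9 CPM, against 146, 140 and 164 CPM with control siRNA (-0.9 ± 0.15, adjusted p = 0.00123), and FOXM1 to 110, 110 and 128 CPM, against 192, 189 and 224 CPM (-0.8 ± 0.17, adjusted p = 0.00649).

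E2F2, the other activating E2F targeted in the series, was low in all libraries. It had 1.15, 1.68 and 1.53 CPM with E2F1 siRNA and 3.34, 2.36 and 4.59 CPM with control siRNA, groups that did not overlap. Its log2 fold change of -1.22 ± 0.38 missed the threshold (adjusted p = 0.0586) and passed it with the replicate block (adjusted p = 0.00861, range over all alternatives 0.00287 to 0.207). E2F3, which shares the activating role, had log2 fold change -0.02 ± 0.12 (adjusted p = 0.957), and the repressive E2F4 had -0.15 ± 0.18 (adjusted p = 0.747). The pocket proteins RB1 (-0.21 ± 0.32, adjusted p = 0.82) and RBL2 (0.0 ± 0.16, adjusted p = 0.996) were not called, and their groups overlapped. In the list of 21 E2F, DP, pocket protein and MuvB genes, 6 were called lower and 0 higher, with a median of -0.26, where 9.34% of all genes tested were called and 4.92% were called lower. With the replicate block 10 of the 21 were called lower, where 10.4% of all genes were.

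**Figure D2:**
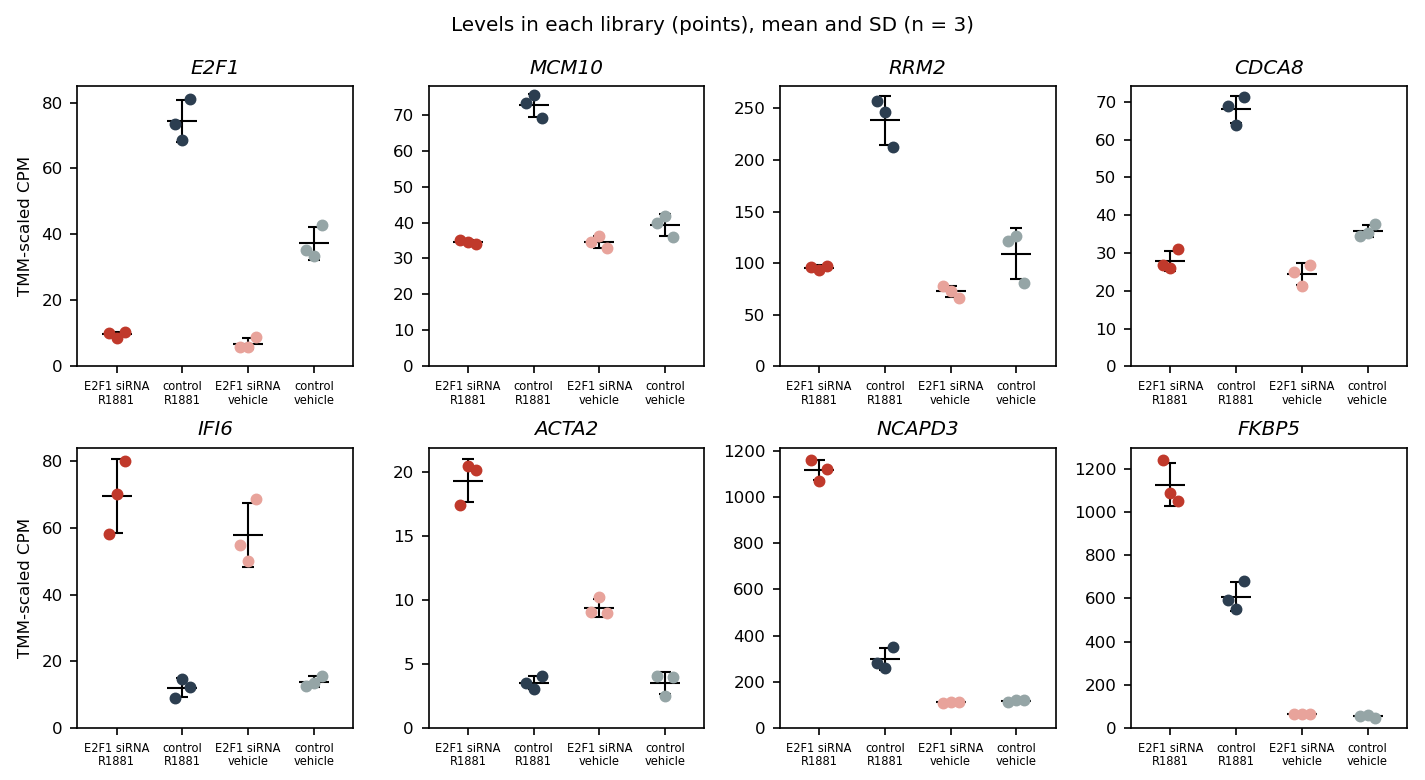
CPM of 8 genes in each library (points) with the group mean ± SD (n = 3), for E2F1 siRNA and control siRNA with R1881 and with vehicle. E2F1, MCM10, RRM2 and CDCA8 are lower and IFI6, ACTA2, NCAPD3 and FKBP5 higher in the 3 E2F1 siRNA libraries with R1881 than in any of the 3 control siRNA libraries with R1881.

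Over all 15185 genes tested, 1418 were called (9.34%), of which 671 were higher (4.42%) and 747 lower (4.92%) with E2F1 siRNA. The median fold change was 0.56 among the genes called higher and -0.66 among those called lower on the log2 scale, and -0.01 over all genes tested. A change of 2-fold or more was found for 117 of the genes called higher (0.77% of all tested) and 138 of those called lower (0.909%), or 1.68% in all. Groups did not overlap for 4918 genes (32.4%), and 1414 of the 1418 called genes were among these (9.31% of all tested). Protein-coding genes made up 606 of the genes called higher and 716 of those called lower, which is 10.6% of 12501 tested, against 3.57% of 644 lincRNAs and 4.67% of 749 antisense RNAs. The replicate block called 3022 genes (19.9%), and leaving out any single library of the 6 left 872 to 1075, with 872 without control siRNA replicate 2, 877 without E2F1 siRNA replicate 1, 897 without control siRNA replicate 1, 899 without E2F1 siRNA replicate 2 and 915 without E2F1 siRNA replicate 3.

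**Figure D3:**
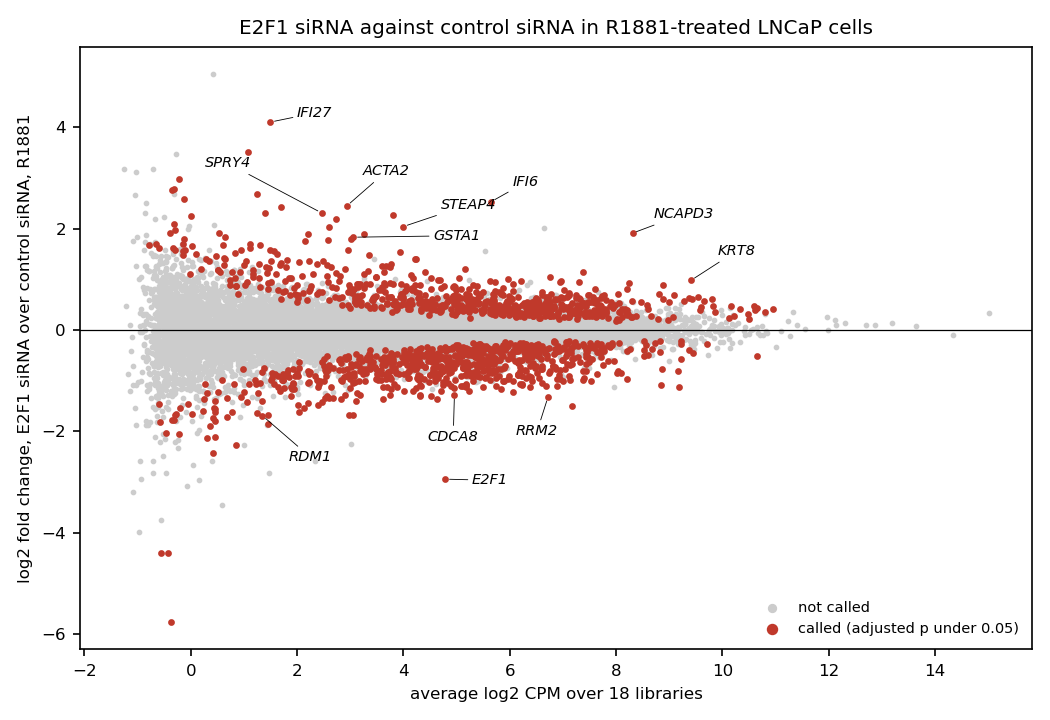
Log2 fold change (E2F1 siRNA over control siRNA, both with R1881) against average log2 CPM for the 15185 tested genes, with the 1418 called genes in colour. E2F1 lies at -2.94, and IFI27 and IFI6 lie at 4.1 and 2.53.

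The cyclin and kinase machinery of the cell cycle was lower as a group. Of 18 listed cyclins, cyclin-dependent kinases and CDC25 regulators, 16 passed the filter. Of these 11 were called lower and 0 higher, with a median of -0.76, against 4.92% of all genes called lower. CDC25A, the phosphatase that activates CDK2 at S phase entry, had 27.9, 25.6 and 27.6 CPM with E2F1 siRNA and 58.2, 56.5 and 52.1 CPM with control siRNA. The groups were far apart, and its log2 fold change was -1.04 ± 0.1 (adjusted p = 7.88e-06). CDC25C and CDC25B, which act at mitosis, had log2 fold changes of -0.98 ± 0.14 (adjusted p = 0.000339) and -0.8 ± 0.14 (adjusted p = 0.00201). CCNA2, cyclin A2 of S and G2 phase, had 46.3, 47.5 and 45.8 CPM with E2F1 siRNA and 89.6, 93.2 and 78.0 CPM with control siRNA (-0.9 ± 0.17, adjusted p = 0.00223). Mitotic cyclin B2 (CCNB2, -0.82 ± 0.13, adjusted p = 0.000858) and the S phase kinase CDK2 (-0.61 ± 0.09, adjusted p = 0.00059) were also lower.

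CDK1, the mitotic kinase, was lowest in replicate 3 of each group. It had 142, 148 and 113 CPM with E2F1 siRNA and 271, 268 and 196 CPM with control siRNA, groups that did not overlap. Its log2 fold change of -0.87 ± 0.36 missed the threshold (adjusted p = 0.173) and passed it with the block (adjusted p = 0.0185, range over all alternatives 4.73e-12 to 0.39). With the block 15 of the 16 genes were called lower, where 10.4% of all genes were.

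Among inhibitors of the cyclin-dependent kinases and genes of their turnover, the INK4 members p18 and p19 were lower and p21 was not called. CDKN2C, the CDK4 and CDK6 inhibitor p18, had 13.6, 15.8 and 20.4 CPM with E2F1 siRNA and 40.7, 35.8 and 45.2 CPM with control siRNA (-1.29 ± 0.16, adjusted p = 0.000109). CDKN2D, the related p19, was lower by 2.51-fold (log2 fold change -1.33 ± 0.19, adjusted p = 0.00033). For both genes the groups were separate, and both were also called lower with vehicle. The cyclin kinase subunit CKS2 was lower too (-0.67 ± 0.1, adjusted p = 0.000487). CDKN1A, the p53-induced inhibitor p21, stood at 121, 121 and 139 CPM with E2F1 siRNA and 118, 104 and 119 CPM with control siRNA, a log2 fold change of 0.17 ± 0.12 that was not called (adjusted p = 0.487). Of the 11 listed genes 5 were called lower and 1 higher, with a median of -0.53, against 4.92% and 4.42% of all genes. The number called lower was 3 without E2F1 siRNA replicate 1 or without control siRNA replicate 2, and the 1 gene called higher, CDKN2B, lost its call whichever of the 6 libraries was left out.

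Genes that license and fire replication origins were lower in most members. Of 27 genes for the origin recognition complex, the MCM helicase and its loaders, 19 were called lower and 0 higher, with a median of -0.66, against 4.92% of all genes called lower. MCM10, which joins the helicase to the polymerase, had 35.2, 34.5 and 34.1 CPM with E2F1 siRNA and 73.3, 75.4 and 69.1 CPM with control siRNA. Its values were tightly grouped within each condition, and its log2 fold change was -1.07 ± 0.1 (adjusted p = 6.98e-06). MCM3, a helicase subunit whose promoter is shown above, had 86.6, 88.2 and 97.8 CPM with E2F1 siRNA and 161, 160 and 167 CPM with control siRNA (-0.84 ± 0.1, adjusted p = 8.01e-05). MCM4 had 166, 177 and 173 CPM with E2F1 siRNA and 300, 309 and 298 CPM with control siRNA (-0.81 ± 0.08, adjusted p = 8.35e-06). The GINS subunits that complete the helicase were lower as well, GINS1 by 1.93-fold (adjusted p = 0.000191) and GINS2 by 1.83-fold (adjusted p = 0.000317). ORC1, the largest origin recognition subunit, fell to 20.4, 22.0 and 20.8 CPM, against 36.3, 31.5 and 37.1 CPM with control siRNA (-0.73 ± 0.12, adjusted p = 0.000704). The helicase loader CDC6 changed less, with 71.5, 80.7 and 77.4 CPM with E2F1 siRNA and 107, 110 and 104 CPM with control siRNA (-0.48 ± 0.09, adjusted p = 0.00272). In these bulk libraries, fewer cells in S phase and less RNA of these genes per cell cannot be told apart.

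At the replication fork, 11 of 30 genes were called lower and 1, POLD4, higher, with a median of -0.61, against 4.92% and 4.42% of all genes. With the block 21 were called lower, where 10.4% of all genes were. The POLD4 call was lost whichever of the 6 libraries was left out (adjusted p = 0.0826 to 0.132). FEN1, the nuclease that trims Okazaki fragments, had 82.5, 83.7 and 92.3 CPM with E2F1 siRNA and 134, 134 and 139 CPM with control siRNA (-0.65 ± 0.08, adjusted p = 8.01e-05). RFC5, part of the clamp loader, had 29.2, 34.0 and 31.8 CPM with E2F1 siRNA and 49.5, 50.6 and 48.2 CPM with control siRNA (-0.64 ± 0.08, adjusted p = 0.000101). Neither gene's groups came near each other. The polymerase subunits POLA2 (-0.85 ± 0.13, adjusted p = 0.000477) and POLD3 (-0.73 ± 0.1, adjusted p = 0.00023) and the checkpoint mediator CLSPN (-0.64 ± 0.13, adjusted p = 0.00384) fell as well.

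Of 20 genes for making deoxynucleotides, 9 were called lower and 0 higher, with a median of -0.34, against 4.92% of all genes called lower. RRM2, the small subunit of ribonucleotide reductase, had 96.4, 93.1 and 97.6 CPM with E2F1 siRNA and 257, 246 and 212 CPM with control siRNA. RRM2 was thus 2.5-fold lower, with log2 fold change -1.32 ± 0.14 (adjusted p = 2.48e-05), while the large subunit RRM1 was 1.59-fold lower (-0.67 ± 0.13, adjusted p = 0.00407). TYMS, thymidylate synthase, had 95.9, 104 and 96.2 CPM with E2F1 siRNA and 160, 168 and 157 CPM with control siRNA (-0.71 ± 0.08, adjusted p = 5.85e-05). TYMS overlaps TYMSOS and ENOSF1 on the other strand. The count of genes called lower was 6 without E2F1 siRNA replicate 1, against 9 with all libraries.

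The replication-dependent histones, which are transcribed in S phase and whose messages lack a poly(A) tail, were lower in most tested members. Their list also holds SLBP, NPAT and CASP8AP2, which are not histone genes. Of 59 listed, 46 passed the filter, of which 31, SLBP among them, were called lower and 0 higher. The median was -0.87, against 4.92% of all genes called lower. HIST1H4C had 69.4, 63.5 and 68.5 CPM with E2F1 siRNA and 142, 141 and 141 CPM with control siRNA (-1.07 ± 0.12, adjusted p = 2.95e-05). HIST1H1B, the linker histone H1.5, had 117, 112 and 127 CPM with E2F1 siRNA and 250, 247 and 267 CPM with control siRNA (-1.1 ± 0.15, adjusted p = 0.000279). HIST1H2BM and HIST1H4B were 2.47-fold and 2.01-fold lower. Near-identical copies can share reads, so values of single histone genes are uncertain. The count called lower was 16 without E2F1 siRNA replicate 2, 17 without E2F1 siRNA replicate 1 and 18 without control siRNA replicate 3.

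Genes of the mitotic spindle were lower as well. Of 28 kinesin and spindle genes 17 were called lower and 0 higher, with a median of -0.83, against 4.92% of all genes called lower. The same count was called lower whichever library was left out. KIF20A, the kinesin of the central spindle, had 55.9, 59.4 and 63.2 CPM with E2F1 siRNA and 130, 126 and 144 CPM with control siRNA, or 2.24-fold lower (log2 fold change -1.16 ± 0.12, adjusted p = 2.24e-05). PRC1, the microtubule bundler of the central spindle, had 80.6, 82.9 and 85.3 CPM with E2F1 siRNA and 154, 157 and 170 CPM with control siRNA (-0.95 ± 0.1, adjusted p = 3.1e-05). The depleted libraries of both genes lay far below the control libraries. NUSAP1 (-1.09 ± 0.14, adjusted p = 0.000109), SPAG5 (-0.94 ± 0.11, adjusted p = 7.09e-05), TPX2 (-0.88 ± 0.09, adjusted p = 1.48e-05) and RACGAP1 (-0.87 ± 0.09, adjusted p = 1.51e-05), which bundle, nucleate or regulate spindle microtubules, were also lower. TOP2A, the topoisomerase that untangles chromosomes, is counted in the replication fork list and not among these 28 genes. It had 145, 147 and 116 CPM with E2F1 siRNA and 269, 289 and 210 CPM with control siRNA. Its log2 fold change of -0.92 ± 0.31 missed the threshold (adjusted p = 0.0835) and passed it with the block (adjusted p = 0.00703, range over all alternatives 1.11e-10 to 0.248).

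In the kinetochore and spindle checkpoint list, 18 of 31 genes were called lower and 0 higher, with a median of -0.85, against 4.92% of all genes called lower. CDCA8, borealin of the chromosomal passenger complex, had 26.9, 26.0 and 31.0 CPM with E2F1 siRNA and 68.8, 64.0 and 71.2 CPM with control siRNA, and its log2 fold change was -1.28 ± 0.11 (adjusted p = 5.68e-06). ZWINT, which ties the checkpoint to the kinetochore, had 52.5, 54.5 and 52.7 CPM with E2F1 siRNA and 112, 116 and 116 CPM with control siRNA (-1.11 ± 0.1, adjusted p = 7.88e-06). For both genes the gap between the groups was wider than the spread within either. The separase ESPL1 was 2.31-fold lower (-1.21 ± 0.18, adjusted p = 0.000422), the checkpoint kinase BUB1B 1.95-fold (-0.97 ± 0.13, adjusted p = 0.000173), the centromeric histone CENPA 2.02-fold (-1.01 ± 0.13, adjusted p = 0.000126) and survivin BIRC5 1.86-fold (-0.89 ± 0.09, adjusted p = 1.77e-05).

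Condensin compacts mitotic chromosomes, and its subunits split. NCAPH, the kleisin of condensin I, had 37.4, 36.9 and 39.1 CPM with E2F1 siRNA and 69.2, 69.1 and 70.5 CPM with control siRNA (-0.88 ± 0.09, adjusted p = 2.24e-05). NCAPD2 was lower by 1.93-fold (-0.95 ± 0.12, adjusted p = 9.56e-05) and NCAPG2 by 2.01-fold (-1.01 ± 0.14, adjusted p = 0.000195). NCAPD3 (chr11:134150119-134225454, minus strand), the HEAT-repeat subunit of condensin II, went the other way. It had 1160, 1070 and 1120 CPM with E2F1 siRNA and 280, 260 and 352 CPM with control siRNA, or 3.75-fold higher, with log2 fold change 1.91 ± 0.14 (adjusted p = 1.57e-06). NCAPD3 is also an androgen-induced gene: with vehicle it stood at 107, 113 and 113 CPM with E2F1 siRNA and 113, 121 and 121 CPM with control siRNA. JAM3 and VPS26B overlap it on the other strand. Of 17 condensin and cohesin genes 5 were called lower and 1, NCAPD3, higher, with a median of -0.58, against 4.92% and 4.42% of all genes. With the block 12 were called lower, where 10.4% of all genes were.

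Repair genes of the Fanconi and homologous recombination pathways mend DNA during and after replication. They were called lower in 13 of 29 with 0 higher, with a median of -0.72, against 4.92% of all genes called lower. With the block 21 were called lower, where 10.4% of all genes were. FANCI, which loads on crosslinks with FANCD2, had 89.1, 87.5 and 81.4 CPM with E2F1 siRNA and 161, 173 and 148 CPM with control siRNA (-0.9 ± 0.14, adjusted p = 0.000808). FANCD2 had 55.1, 59.4 and 55.1 CPM with E2F1 siRNA and 97.0, 96.0 and 96.0 CPM with control siRNA (-0.77 ± 0.11, adjusted p = 0.000293). The groups were well apart for both partners. RDM1, a small RAD52-like protein, was near the detection range and 3.23-fold lower, at 1.81, 1.39 and 1.36 CPM with E2F1 siRNA and 5.01, 5.14 and 4.59 CPM with control siRNA (-1.69 ± 0.21, adjusted p = 0.00012). The ubiquitin-conjugating enzyme UBE2T was 1.57-fold lower (adjusted p = 0.000203).

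Chromatin genes tied to proliferation were called lower in 11 of 20 with 0 higher, with a median of -0.51, against 4.92% of all genes called lower. HMGB2, a DNA-bending protein, had 78.4, 76.4 and 83.5 CPM with E2F1 siRNA and 167, 176 and 178 CPM with control siRNA, or 2.19-fold lower (-1.13 ± 0.09, adjusted p = 3.09e-06). LMNB1, lamin B1 of the nuclear envelope, was 1.87-fold lower (-0.9 ± 0.1, adjusted p = 4.76e-05). The nucleosome assembly subunits CHAF1A (-0.75 ± 0.11, adjusted p = 0.000417) and CHAF1B (-0.73 ± 0.12, adjusted p = 0.00131) and the histone methyltransferase EZH2 (-0.76 ± 0.13, adjusted p = 0.00171) had similar changes. The related HMGB1 changed less (-0.48 ± 0.08, adjusted p = 0.0016).

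The cell cycle lists can be set side by side in the 4 groups of both pools and both treatments. Relative to the mean of the control siRNA R1881 libraries, the median gene of the origin and MCM list stood at -0.69, -0.64 and -0.60 log2 units in the 3 E2F1 siRNA libraries with R1881. It stood at -0.84, -0.88 and -0.84 in E2F1 siRNA libraries with vehicle and at -0.85, -0.78 and -1.0 in control siRNA libraries with vehicle. The median kinesin and spindle gene stood at -0.84, -0.79 and -0.87 in the E2F1 siRNA libraries with R1881. With vehicle it stood at -1.16, -1.27 and -1.35 with E2F1 siRNA and -0.86, -0.86 and -1.39 with control siRNA, where replicate 3 was the lowest. R1881 against vehicle in control cells called 22 of 27 origin and MCM genes and 22 of 28 kinesin and spindle genes higher, where 27.0% of all genes were called and 13.8% were called higher. With the replicate block that comparison called 6392 genes against 4105 without it. It shares the control R1881 libraries with the E2F1 siRNA comparison.

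**Figure D4:**
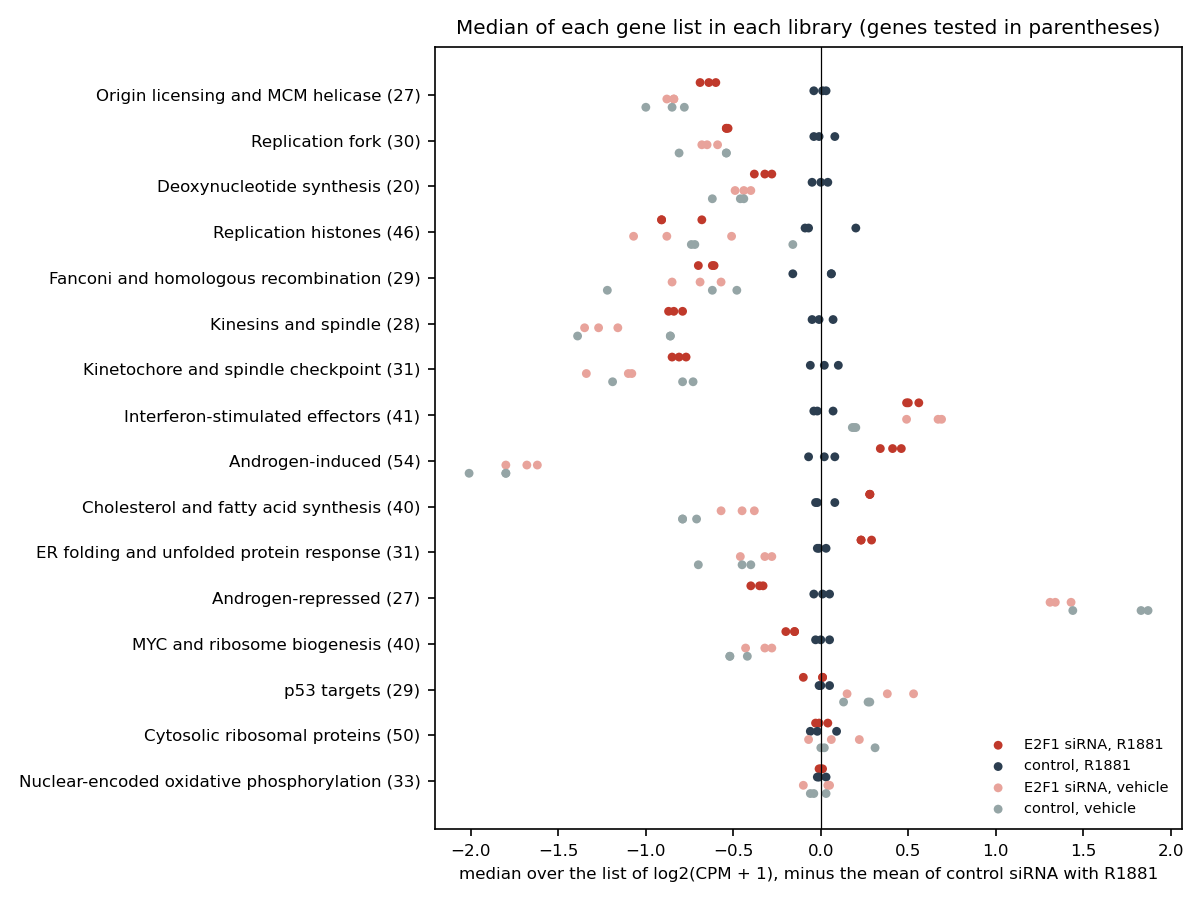
Median over each of 16 gene lists of log2(CPM + 1) minus the mean of the 3 control siRNA libraries with R1881, by library (points) in 4 groups. The proliferation lists lie below 0 in the 3 E2F1 siRNA libraries with R1881 (the kinesin and spindle list at -0.84, -0.79 and -0.87), while the interferon effectors lie at 0.5, 0.56 and 0.49.

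Interferon-stimulated genes encode antiviral effectors that are induced through STAT2 and IRF9, among other factors, at the response element marked in the promoters above. Several of the largest rises were of this group. Of 47 listed effectors 41 passed the filter, of which 18 were called higher and 1, TRIM25, lower, with a median of 0.72, against 4.42% of all genes called higher. The filter keeps a gene that is high enough in the libraries of any group. IFI27, OAS2 and BST2, whose levels are given below, were low with control siRNA and R1881 and passed it through other libraries. Effectors low in every group were left out, so the 18 of 41 is not free of the filter. The TRIM25 call was lost without E2F1 siRNA replicate 1 or 2 or control siRNA replicate 2 or 3. IFI6 (chr1:27666061-27672218, minus strand), a mitochondrial and endoplasmic reticulum protein, had 58.1, 70.2 and 80.2 CPM with E2F1 siRNA and 9.08, 14.8 and 12.2 CPM with control siRNA. No library came near the other group, and the log2 fold change was 2.53 ± 0.18, or 5.78-fold (adjusted p = 1.51e-06). IFIT1, which binds foreign RNA caps, had 15.9, 20.4 and 18.9 CPM with E2F1 siRNA and 4.34, 4.57 and 2.51 CPM with control siRNA (2.26 ± 0.25, adjusted p = 4.2e-05). OAS1, which makes the messenger that activates RNase L, had 8.45, 9.71 and 11.3 CPM with E2F1 siRNA and 1.74, 2.5 and 2.25 CPM with control siRNA (2.18 ± 0.19, adjusted p = 5.35e-06).

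IFI27, a small membrane protein, rested on few counts. It stood at 3.45, 5.18 and 4.51 CPM with E2F1 siRNA and at 0.267, 0.214 and 0.26 CPM with control siRNA (log2 fold change 4.1 ± 0.34, adjusted p = 3.93e-06). IFITM1, an entry inhibitor at the plasma membrane, was 5.37-fold higher and IFIT2 2.91-fold higher (adjusted p = 4.31e-05 and 3.12e-05). OAS2 was also low, at 2.38, 3.94 and 3.91 CPM with E2F1 siRNA and 0.334, 0.5 and 0.0 CPM with control siRNA, and its log2 fold change of 3.5 became 4.13 without control siRNA replicate 2. BST2, tetherin, had 3.12, 3.72 and 3.23 CPM with E2F1 siRNA and 0.467, 0.714 and 0.346 CPM with control siRNA (2.68 ± 0.32, adjusted p = 7.54e-05). IFIT1, IFIT2 and IFIT3 overlap LIPA on the other strand, and IFITM1 overlaps IFITM2 on the same strand.

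Of the factors that drive these effectors, STAT2 was called, while IRF9 and IRF7 were not. STAT2 was called at 1.29-fold (0.36 ± 0.09, adjusted p = 0.0148), a call lost without E2F1 siRNA replicate 1 or 3 or control siRNA replicate 1 or 2 (highest adjusted p = 0.0688). IRF9 (0.25 ± 0.39, adjusted p = 0.819) and IRF7 (0.4 ± 0.3, adjusted p = 0.537) were not called and their groups overlapped. The effector MX1, a classical interferon target, was not called either, at 3.12, 3.14 and 3.83 CPM with E2F1 siRNA and 3.61, 3.71 and 4.07 CPM with control siRNA. IFNB1, the gene of interferon beta, had 0 counts in all 6 libraries. Of 23 tested sensors, interferon regulatory factors and STATs, 2 were called higher and 0 lower, with a median of 0.23, against 4.42% of all genes called higher. With the block 5 were called higher, where 9.5% of all genes were. The 2 called without the block were STAT2 and IFNGR2, a subunit of the interferon gamma receptor. The count was 1 without E2F1 siRNA replicate 1 or 2, 0 without E2F1 siRNA replicate 3 or control siRNA replicate 1 or 2, and 3 without control siRNA replicate 3.

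Interferon effectors were also higher without androgen. With vehicle 14 of the 41 were called higher and 1 lower, with a median of 0.57, where 5.28% of all genes were called and 2.36% were called higher. IFI6 had 54.9, 50.1 and 68.6 CPM with E2F1 siRNA and vehicle, and 12.5, 13.4 and 15.7 CPM with control siRNA and vehicle (log2 fold change 2.06, adjusted p = 5.41e-06). With E2F2 siRNA and R1881 IFI6 stood at 65.7, 76.9 and 72.5 CPM, and E2F1 siRNA over E2F2 siRNA gave -0.05 ± 0.17 (adjusted p = 0.888). IFI27 likewise stood at 3.8, 3.26 and 4.33 CPM with E2F2 siRNA, a difference of 0.21 ± 0.23 (adjusted p = 0.578). For both genes the 3 libraries of either E2F pool lay above all 3 of the non-targeting pool. Over the list, 1 of 41 was called higher and 9 lower with E2F1 siRNA than with E2F2 siRNA. The median was -0.24, where 11.0% of all genes were called higher and 13.1% lower.

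Androgen-induced genes, which are the classical readout of androgen action in LNCaP cells, were higher on balance. Of 54 listed, 19 were called higher and 0 lower, with a median of 0.41, against 4.42% of all genes called higher. With the block 34 were called higher and 2 lower, where 9.5% of all genes were called higher and 10.4% lower. FKBP5, a co-chaperone of steroid receptors, had 1240, 1090 and 1050 CPM with E2F1 siRNA and 593, 553 and 681 CPM with control siRNA (0.89 ± 0.12, adjusted p = 0.000222). STEAP4, a metalloreductase, had 61.1, 48.7 and 47.9 CPM with E2F1 siRNA and 10.4, 10.8 and 17.2 CPM with control siRNA (2.04 ± 0.29, adjusted p = 0.000279). Both were separate between the groups and had far lower levels with vehicle. The prostein gene SLC45A3 was 1.74-fold higher (0.8 ± 0.12, adjusted p = 0.000487), sorbitol dehydrogenase SORD 1.48-fold (0.57 ± 0.07, adjusted p = 0.0001) and PMEPA1, an inhibitor of TGF-beta signalling, 1.58-fold (0.66 ± 0.1, adjusted p = 0.000674).

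KLK3 and TMPRSS2, which are widely used as androgen targets, lay near the threshold. KLK3, prostate-specific antigen, had 2370, 2190 and 2090 CPM with E2F1 siRNA and 1720, 1650 and 1720 CPM with control siRNA, a log2 fold change of 0.39 ± 0.12 at the edge of the threshold (adjusted p = 0.0511, 0.0118 with the block, range over all alternatives 1.98e-06 to 0.179). TMPRSS2, the serine protease fused in many prostate cancers, had 992, 893 and 912 CPM with E2F1 siRNA and 726, 733 and 892 CPM with control siRNA (0.25 ± 0.09, adjusted p = 0.0973, 0.0316 with the block, range 1.33e-06 to 0.342). For both genes the groups did not overlap, though for TMPRSS2 control siRNA replicate 3 came close to the lowest depleted library.

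ACPP and TSC22D3, which are on this list, were higher with E2F1 siRNA, while R1881 lowered both in these control cells. ACPP, prostatic acid phosphatase, had 202, 210 and 202 CPM with E2F1 siRNA and 124, 128 and 127 CPM with control siRNA (0.69 ± 0.07, adjusted p = 2.48e-05). TSC22D3, a glucocorticoid-induced leucine zipper protein, had 52.5, 51.4 and 52.2 CPM with E2F1 siRNA and 30.9, 27.4 and 31.6 CPM with control siRNA (0.8 ± 0.1, adjusted p = 0.000101). R1881 against vehicle in control cells gave -0.73 for ACPP and -0.41 for TSC22D3, both called.

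Genes listed as repressed by androgen were mostly lower or not called. Of 28 listed 27 passed the filter, of which 9 were called lower and 2, UGT2B11 and ADRA2A, higher, with a median of -0.54. Of all genes 4.92% were called lower and 4.42% higher. LRRN1, a neuronal leucine-rich repeat protein, had 14.7, 16.8 and 16.0 CPM with E2F1 siRNA and 32.3, 30.6 and 30.1 CPM with control siRNA (-0.97 ± 0.09, adjusted p = 1.03e-05). CAMK2N1, an inhibitor of CaM kinase II, had 47.8, 51.9 and 53.9 CPM with E2F1 siRNA and 102, 89.4 and 83.9 CPM with control siRNA (-0.84 ± 0.09, adjusted p = 2.83e-05). PEG3, an imprinted zinc finger gene, had 188, 181 and 179 CPM with E2F1 siRNA and 412, 406 and 343 CPM with control siRNA (-1.08 ± 0.1, adjusted p = 5.46e-06). In all 3 genes the groups were far apart. The same list had 13 called lower and 2 higher with vehicle, with a median of -0.47, against 2.92% and 2.36% of all genes. The count called lower with R1881 was 6 without E2F1 siRNA replicate 2, E2F1 siRNA replicate 3 or control siRNA replicate 2, and UGT2B11, which was higher (1.17 ± 0.18, adjusted p = 0.000586), belongs to a family of near-identical genes.

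Lipid synthesis genes, many of which androgen induces, included 8 with rises. Of 41 listed 40 passed the filter, of which 8 were called higher and 0 lower, with a median of 0.28, against 4.42% of all genes called higher. With the block 19 were called higher, where 9.5% of all genes were. ACACA, acetyl-CoA carboxylase, had 1180, 1170 and 1210 CPM with E2F1 siRNA and 818, 860 and 931 CPM with control siRNA (0.45 ± 0.06, adjusted p = 0.000179). SCD, stearoyl-CoA desaturase, had 1680, 1590 and 1610 CPM with E2F1 siRNA and 1290, 1300 and 1330 CPM with control siRNA (0.31 ± 0.06, adjusted p = 0.00458). The count called higher was 4 without E2F1 siRNA replicate 1, E2F1 siRNA replicate 3, control siRNA replicate 1 or control siRNA replicate 2, and 5 without E2F1 siRNA replicate 2.

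Folding genes of the endoplasmic reticulum included 10 with rises. In this list 10 of 31 were called higher and 1, EDEM1, lower, with a median of 0.25, against 4.42% and 4.92% of all genes. With the block 16 were called higher, where 9.5% of all genes were. HSPA5, the chaperone BiP, had 1210, 1220 and 1180 CPM with E2F1 siRNA and 851, 861 and 870 CPM with control siRNA (0.48 ± 0.08, adjusted p = 0.000956). HERPUD1, a factor of protein degradation from the reticulum, had 184, 198 and 207 CPM with E2F1 siRNA and 118, 129 and 124 CPM with control siRNA (0.67 ± 0.09, adjusted p = 0.000265). PDIA5, a disulfide isomerase, was 1.65-fold higher (0.72 ± 0.11, adjusted p = 0.00056), and the transcription factor XBP1 1.27-fold (0.34 ± 0.07, adjusted p = 0.0053). Leaving out E2F1 siRNA replicate 1, 2 or 3 or control siRNA replicate 1 or 2 brought the count called higher to 5, and the EDEM1 call was lost without E2F1 siRNA replicate 3 or control siRNA replicate 1. The stress factor DDIT3 was not called (0.27 ± 0.14, adjusted p = 0.287).

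Polyamine genes matter in the prostate because its secretion is rich in polyamines. They had 5 of 18 called higher and 0 lower, with a median of 0.09, against 4.42% of all genes called higher. The count called higher was 3 whichever library was left out. SAT1, which acetylates spermidine and spermine for export, had 341, 313 and 309 CPM with E2F1 siRNA and 190, 173 and 187 CPM with control siRNA (0.81 ± 0.09, adjusted p = 2.48e-05). SMS, spermine synthase, had 551, 516 and 511 CPM with E2F1 siRNA and 315, 306 and 340 CPM with control siRNA (0.72 ± 0.11, adjusted p = 0.000597). ARG2, the arginase that feeds ornithine to the pathway, was 1.94-fold higher (0.95 ± 0.09, adjusted p = 6.77e-06), whereas ornithine decarboxylase ODC1 was not called (-0.09 ± 0.11, adjusted p = 0.768).

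Contractile genes of the serum response factor and YAP list included a few large rises. ACTA2, smooth muscle actin (chr10:88935074-88991339, minus strand), had 17.4, 20.4 and 20.1 CPM with E2F1 siRNA and 3.54, 3.0 and 4.07 CPM with control siRNA (2.45 ± 0.18, adjusted p = 1.53e-06). MYL9, a regulatory myosin light chain, had 8.37, 7.89 and 11.5 CPM with E2F1 siRNA and 2.0, 2.43 and 3.03 CPM with control siRNA (1.9 ± 0.23, adjusted p = 8.42e-05). CNN2, calponin 2, was 1.74-fold higher (0.8 ± 0.17, adjusted p = 0.00558), while CYR61, a YAP target, had 10.7, 10.7 and 9.87 CPM with E2F1 siRNA and 10.6, 9.85 and 11.4 CPM with control siRNA. Of 33 listed 24 passed the filter, of which 7 were called higher and 1, AJUBA, lower, with a median of 0.12. Of all genes 4.42% were called higher and 4.92% lower. Members low in every group were left out, so the 7 of 24 is not free of the filter. Without control siRNA replicate 1 the count called higher was 4. The AJUBA call was lost without E2F1 siRNA replicate 1 or 3 or control siRNA replicate 1 or 2. ACTA2 overlaps STAMBPL1 and FAS on the other strand. The summed markers of other cell types, given above, were lower with E2F1 siRNA, and the endothelial marker VWF was itself called lower, at 7.22, 8.47 and 11.5 CPM with E2F1 siRNA and 18.6, 18.8 and 16.4 CPM with control siRNA (-0.99 ± 0.16, adjusted p = 0.000674). Their part in the contractile result was not tested.

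Of the luminal keratins KRT8 and KRT18 were higher, while KRT19 was not called (log2 fold change -0.65 ± 0.22, adjusted p = 0.0809). KRT8 had 1140, 1040 and 1220 CPM with E2F1 siRNA and 516, 466 and 745 CPM with control siRNA (0.98 ± 0.21, adjusted p = 0.00663), and KRT18 had 966, 873 and 958 CPM with E2F1 siRNA and 531, 528 and 673 CPM with control siRNA (0.69 ± 0.14, adjusted p = 0.00482). These partner keratins overlap on opposite strands. E-cadherin CDH1 was 1.28-fold higher (0.36 ± 0.07, adjusted p = 0.00301), and fibronectin FN1, a matrix protein, was 2.17-fold lower (-1.12 ± 0.11, adjusted p = 1.25e-05). In the luminal list 3 of 18 genes were called higher and 0 lower, with a median of 0.11, against 4.42% of all genes called higher.

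Among the 20 largest rises, 9 were members of the interferon effector list, and the others were of mixed function. LAT2, an adaptor of immune receptor signalling, had 19.5, 19.6 and 19.0 CPM with E2F1 siRNA and 3.94, 4.86 and 5.45 CPM with control siRNA (2.03 ± 0.2, adjusted p = 1.06e-05). TRGC1, the T cell receptor gamma constant gene that LNCaP cells transcribe from an androgen-responsive promoter, had 36.4, 34.5 and 30.7 CPM with E2F1 siRNA and 8.68, 9.28 and 9.26 CPM with control siRNA (1.9 ± 0.16, adjusted p = 4.45e-06). GSTA1, a glutathione transferase, had 10.8, 12.1 and 10.2 CPM with E2F1 siRNA and 2.8, 3.14 and 3.37 CPM with control siRNA (1.83 ± 0.16, adjusted p = 5.15e-06). Heparin cofactor SERPIND1 was 3.36-fold higher (1.75 ± 0.14, adjusted p = 3.09e-06). SPRY4, a feedback inhibitor of receptor tyrosine kinase signalling, had 3.78, 3.07 and 3.06 CPM with E2F1 siRNA and 1.14, 0.428 and 0.346 CPM with control siRNA, and its log2 fold change of 2.31 ± 0.34 (adjusted p = 0.000408) became 3.05 without control siRNA replicate 1. SPRY4 was thus low with control siRNA and R1881 and passed the filter on low counts through libraries of other groups. CREB5, a leucine zipper factor, was 4.91-fold higher from low levels (2.3 ± 0.37, adjusted p = 0.000784).

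The 20 largest falls held E2F1, E2F7, RDM1 and HIST1H2AM, and the others included genes known from neurons. NAV3, a neuron navigator, had 2.46, 2.77 and 1.96 CPM with E2F1 siRNA and 7.61, 8.71 and 6.75 CPM with control siRNA (-1.67 ± 0.18, adjusted p = 3.26e-05). GRIK2, a kainate receptor subunit, had 3.78, 2.26 and 1.96 CPM with E2F1 siRNA and 6.88, 7.07 and 7.09 CPM with control siRNA (-1.39 ± 0.22, adjusted p = 0.000609). NEURL1B, a ubiquitin ligase of Delta ligands, had 20.8, 18.1 and 19.9 CPM with E2F1 siRNA and 50.6, 47.3 and 52.8 CPM with control siRNA (-1.36 ± 0.11, adjusted p = 3.48e-06). The scavenger receptor SCARA3 (-1.67 ± 0.27, adjusted p = 0.000969), FAM49A (-1.67 ± 0.3, adjusted p = 0.00201), the transcription factor MYB (-1.42 ± 0.26, adjusted p = 0.00217) and PHF19, a Polycomb-associated protein (-1.61 ± 0.32, adjusted p = 0.0038), had CPM values under 8 in all 6 libraries. In the neural and neuroendocrine list 3 of 15 tested genes were called lower and 2 higher, with a median of -0.11, against 4.92% and 4.42% of all genes. The count called higher was 1 without E2F1 siRNA replicate 3.

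Several lists outside these groups are read against the 9.34% of all genes called, or 19.9% with the block. None of 50 cytosolic ribosomal protein genes was called by edgeR, with a median of -0.01, 1 gene at an unadjusted p under 0.05, and DESeq2 called 1, limma-voom 0 and the replicate block 1. None of 33 nuclear oxidative phosphorylation genes was called, with a median of -0.02, 0 genes at an unadjusted p under 0.05, 0 called by DESeq2 or limma-voom and 2 with the replicate block. Of 29 p53 targets 1 was called higher and 2 lower, with a median of -0.01, against 3 and 4 with the block, and without a single library the count called lower was 1 without E2F1 siRNA replicate 2 and 0 without any of the other 5. The p53 regulator MDM2 was at 0.08 ± 0.23 (adjusted p = 0.905). Of 27 apoptosis genes 0 were called higher and 2 lower, against 3 and 4 with the block, the proapoptotic BCL2L11 among those called lower (-0.46 ± 0.09, adjusted p = 0.0053). The count called lower was 1 without any single library other than control siRNA replicate 2. In the MYC and ribosome biogenesis list 7 of 40 were called lower and 0 higher, with a median of -0.17, against 4.92% of all genes called lower, and 11 were called lower with the block, where 10.4% of all genes were. The count called lower was 2 without E2F1 siRNA replicate 1 or 2 or control siRNA replicate 2, 3 without control siRNA replicate 3 and 4 without E2F1 siRNA replicate 3. MYC itself had 182, 183 and 205 CPM with E2F1 siRNA and 241, 247 and 286 CPM with control siRNA (-0.44 ± 0.19, adjusted p = 0.196, 0.0021 with the block, range over all alternatives 7.41e-07 to 0.421).

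To ask whether the effect of E2F1 siRNA depended on androgen, the same comparison with vehicle was fitted and the difference between both effects was tested. With vehicle 802 genes were called (5.28%), of which 359 were higher and 443 lower, and with the replicate block 1934 were called. A fit to the vehicle groups alone called 17, so the shares of shared calls given here hold for the fit across all groups. The count was 445 without the E2F1 siRNA vehicle replicate 1 and 460 without the E2F1 siRNA vehicle replicate 2. Of the 671 genes called higher with R1881, 186 were also called higher with vehicle, which is 27.7% of the R1881 list and 51.8% of the vehicle list. Of the 747 called lower with R1881, 184 were also called lower with vehicle, which is 24.6% and 41.5%. The difference between the effects passed the test for 104 genes (0.685% of all tested), with 57 more positive and 47 more negative with R1881, for 696 genes with the replicate block and for 21 in a fit to the compared groups alone. An effect called with 1 treatment alone is not shown to differ unless it is among these. Without a single R1881 library the count was 38, 35 and 45 for E2F1 siRNA replicates 1, 2 and 3 and 39 and 29 for control siRNA replicates 1 and 2. Without a single vehicle library it was 37 for E2F1 siRNA replicate 1 and 63 and 250 for control siRNA replicates 1 and 3.

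Several S phase genes had a larger decrease under R1881 than with vehicle. In the origin and MCM list 5 of 27 differed in that direction, where 0.31% of all genes did. With vehicle 1 of the 27 was called lower and 1 higher, with a median of 0.03. MCM10 had 34.6, 36.2 and 33.0 CPM with E2F1 siRNA and vehicle, against 39.9, 41.9 and 35.9 CPM with control siRNA and vehicle. The effect with R1881 minus that with vehicle was -0.89 ± 0.14 (adjusted p = 0.00647). MCM4 had 179, 170 and 178 CPM with E2F1 siRNA and vehicle and 169, 184 and 160 CPM with control siRNA and vehicle, groups that overlapped, and its difference was -0.85 (adjusted p = 0.00218). TYMS had 88.8, 82.9 and 87.3 CPM with E2F1 siRNA and vehicle and 84.6, 84.6 and 75.1 CPM with control siRNA and vehicle, and its difference was -0.80 ± 0.12 (adjusted p = 0.00469). CDC6 differed as well (-0.84, adjusted p = 0.00647): with vehicle it was called higher, at 59.3, 58.0 and 62.1 CPM with E2F1 siRNA and 51.0, 46.2 and 43.0 CPM with control siRNA. FEN1 differed by -0.72 (adjusted p = 0.00647). The calls for MCM10, MCM4, TYMS, CDC6 and FEN1 held whichever of the 12 libraries was left out, while those for the origin genes MCM6 and ORC1 were lost without 5 and 10 of them.

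Some mitotic genes were called lower with both treatments. CDCA8 was called lower with vehicle (-0.56, adjusted p = 0.00873), at 25.1, 21.2 and 26.8 CPM with E2F1 siRNA and 34.5, 35.4 and 37.6 CPM with control siRNA, and its difference of -0.73 ± 0.16 was not called (adjusted p = 0.0506). KIF20A and PRC1 were called lower with vehicle at -0.46 (adjusted p = 0.0412) and -0.41 (adjusted p = 0.0309). In the kinesin list 4 of 28 were called lower with vehicle, against 2.92% of all genes, and 1, TPX2, differed between treatments (-0.58, adjusted p = 0.0484), a call lost without 10 of the 12 libraries. In the kinetochore list 2 of 31 were called lower with vehicle and 2, BUB1B and BIRC5, differed, calls that were also each lost without 10 of the 12 libraries. RRM2 was called lower with vehicle as well (-0.59, adjusted p = 0.0224).

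Genes with a more positive effect under R1881 were of several kinds, and the 4 described here kept their call whichever library was left out. NCAPD3, whose levels are given above, had a difference of 2.0 ± 0.2 (adjusted p = 0.000248), with no called effect with vehicle (-0.09, adjusted p = 0.86). ANKRD37, a hypoxia-inducible ankyrin protein, had 28.6, 23.8 and 22.3 CPM with E2F1 siRNA and 9.08, 8.21 and 9.52 CPM with control siRNA under R1881, and with vehicle 4.61, 3.8 and 2.92 CPM against 3.99, 3.94 and 3.67 CPM (difference 1.51, adjusted p = 0.00469). Other genes had their called effect with vehicle. MYLK, myosin light chain kinase, had 19.3, 19.4 and 24.0 CPM with E2F1 siRNA and vehicle and 62.9, 58.9 and 77.4 CPM with control siRNA and vehicle, but 10.7, 10.6 and 9.19 CPM against 7.75, 6.0 and 10.3 CPM under R1881 (difference 2.01, adjusted p = 0.000845). IGF1R, the insulin-like growth factor receptor, had 24.4, 26.2 and 26.4 CPM with E2F1 siRNA and vehicle and 50, 47.7 and 53.5 CPM with control siRNA and vehicle. Under R1881 it had 233, 229 and 230 CPM with E2F1 siRNA and 226, 212 and 236 CPM with control siRNA, and the difference between the effects was 1.01 (adjusted p = 0.000248).

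**Figure D5:**
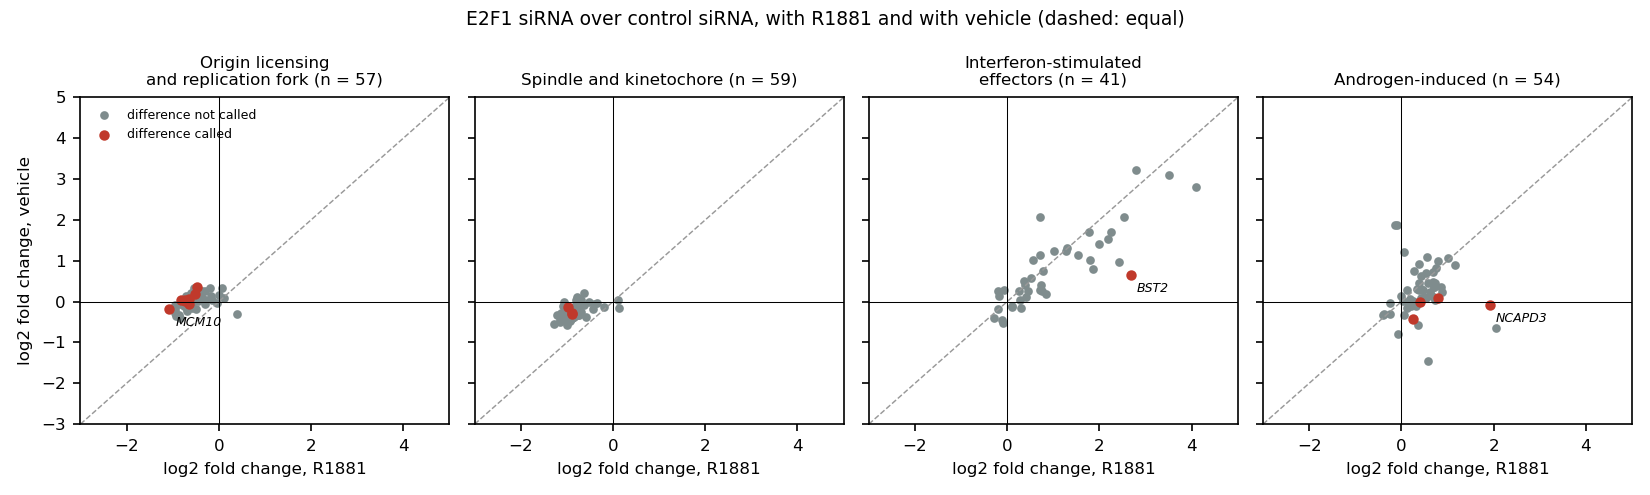
Log2 fold change of E2F1 siRNA over control siRNA with R1881 (horizontal) against that with vehicle (vertical) for the members of the named gene lists (57, 59, 41 and 54 genes), with a dashed line of equal effect and genes whose effects differed by test in red. MCM10 lies at -1.07 with R1881 and -0.18 with vehicle, and NCAPD3 at 1.91 and -0.09.

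The direct comparison of the E2F1 and E2F2 pools, both with R1881, uses no control library. It called 3648 genes (24.0%), with 1664 higher and 1984 lower with E2F1 siRNA. The targeted genes differed as their labels say: E2F1 had 10.1, 8.69 and 10.3 CPM with E2F1 siRNA and 25.4, 21.5 and 25.5 CPM with E2F2 siRNA (-1.32 ± 0.17, adjusted p = 3.41e-05), and E2F2 had 1.15, 1.68 and 1.53 CPM with E2F1 siRNA and 0.0845, 0.0836 and 0.416 CPM with E2F2 siRNA (2.84 ± 0.61, adjusted p = 0.00289). Each gene also lay below its control siRNA libraries with R1881, given above, in the libraries of the pool against the other gene. The comparison therefore does not set loss of E2F1 alone against loss of E2F2 alone. Where 11.0% of all genes were called higher with E2F1 siRNA than with E2F2 siRNA and 13.1% lower, the proliferation lists had more calls higher than lower but differed in their share. Of 27 origin and MCM genes 19 were called higher and 1 lower (median 0.68), and of 28 kinesin and spindle genes 18 were called higher and 0 lower (median 0.67). The shares were smaller in the histone list (20 of 46) and among E2F and RB genes (9 of 21), chromatin genes (9 of 20), cyclins and kinases (7 of 16), kinase inhibitors (4 of 11 higher and 2 lower) and condensin and cohesin genes (6 of 17). TYMS had 95.9, 104 and 96.2 CPM with E2F1 siRNA and 50.5, 41.1 and 45.9 CPM with E2F2 siRNA (1.11 ± 0.08, adjusted p = 2.53e-07). RRM2 was not called, at 96.4, 93.1 and 97.6 CPM with E2F1 siRNA and 88.3, 71.2 and 76.1 CPM with E2F2 siRNA (0.29 ± 0.14, adjusted p = 0.16). Ribosomal protein genes were higher with E2F1 siRNA in 47 of 50 (median 0.65).

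Several genes called higher against the control pool also differed between the E2F pools. ACTA2 had 17.4, 20.4 and 20.1 CPM with E2F1 siRNA and 3.3, 2.76 and 4.16 CPM with E2F2 siRNA (2.5 ± 0.18, adjusted p = 1.35e-07). NCAPD3 had 1160, 1070 and 1120 CPM with E2F1 siRNA and 234, 178 and 148 CPM with E2F2 siRNA (2.58 ± 0.15, adjusted p = 1.22e-08). ADRA2A, an adrenergic receptor, with 53.1, 49.5 and 58.7 CPM in control siRNA libraries, had 85.3, 89.4 and 97.8 CPM with E2F1 siRNA and 12.2, 10.9 and 14.1 CPM with E2F2 siRNA (2.87 ± 0.17, adjusted p = 1.82e-08), and GSTA1 differed by 2.54 ± 0.17 (adjusted p = 7.35e-08). ACTG2, gamma smooth muscle actin, had 1.81, 2.41 and 2.47 CPM with E2F1 siRNA and was close to absent with E2F2 siRNA, at 0.0, 0.0836 and 0.0 CPM. In the other direction, CAMK2N1 had 47.8, 51.9 and 53.9 CPM with E2F1 siRNA and 272, 317 and 314 CPM with E2F2 siRNA (-2.55 ± 0.09, adjusted p = 7.27e-11). KCNK3, a potassium channel, had 0 counts in all 3 E2F1 siRNA libraries and 4.82, 5.52 and 6.49 CPM with E2F2 siRNA. ACTG2 and KCNK3 passed the filter on low counts through libraries other than those of their low group. They were then named for the size of this difference, so it is not free of the filter or of that choice. PEG3 had 188, 181 and 179 CPM with E2F1 siRNA and 671, 705 and 741 CPM with E2F2 siRNA (-1.95 ± 0.1, adjusted p = 2.39e-09), and its control siRNA libraries lay between.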

How the data were processed

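RNA was sequenced from 18 LNCaP libraries, made by exome capture per the labels' protocols. The deposited values are raw counts per gene, one table for the series, made by the authors on GRCh38. The submitters' processing notes name TopHat2 (version 2.0.13) and featureCounts (in Subread, version 1.6.4), besides CASAVA 1.8.2 and Picard 1.97. The annotation release, strand setting and treatment of multiply mapped reads are not given in the sources used here. GENCODE 29 holds 57433 of the 58037 identifiers and gave gene names, types and positions. Groups and replicate numbers came from the sample titles. From the counts, genes were kept by edgeR's filterByExpr (minimum count 10, minimum total 15), libraries were scaled by TMM, and edgeR 4.0.16 in R 4.3.3 fitted the quasi-likelihood model with 6 group means to all 18 libraries. Calls were made at a Benjamini-Hochberg adjusted p under 0.05, from 2-sided tests. The depth was 10930204 to 14819879 counts per library.

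Gene members and 42 gene lists were chosen with earlier results of these data known, so a list's direction is not independent evidence. Named genes were E2F1 and E2F2, the 20 largest rises and 20 largest falls among called genes with average log2 CPM of at least 1 and groups that did not overlap, the 6 called members of each list with the smallest p, list members given as not called or as one of a family, and the 6 largest differences each way between treatments and between siRNA pools. KCNK3 and ACTG2 come from the last. Promoters came from RefSeq tables, and both strands were searched. Deviations of same-numbered replicates correlated at 0.199, 0.128 and 0.408 between E2F1 siRNA and control siRNA with R1881, and at 0.367, 0.534 and 0.796 with vehicle. The highest correlation with another number was 0.211, 0.095 and -0.254 with R1881 and 0.433, 0.578 and -0.679 with vehicle, so replicate 3 alone stood clearly with its own number. Against E2F2 siRNA 1 pair was at 0.091. The numbers were taken as pairing the samples because each pair of both control comparisons was over 0.1, not from a stated design. Alternatives were RLE scaling, other filters, DESeq2 1.42.0, limma-voom (limma 3.58.1), the replicate block, a fit to the compared groups alone, a threshold of 0.01, each library left out and, chosen after seeing the data, GC content correction and replicates 1 and 2 alone. The fit was tested on simulated data with known changes. It called 13 of 100 genes changed by 0.5 on the log2 scale and 73 of 100 changed by 1, with 6 unchanged genes called. Changes near 0.5 were thus mostly not called there. The series' design text calls the replicates biological but does not say how the cultures were separated, so p-values measure the spread between these libraries. Some genes covered by these rules are not reported here, and the marker sums leave out 3 markers.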

Additional observations from a re-analysis of the deposited data

Results flagged for a closer look

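The results below are those reported among genes named by the rule or on a list for which the effect of E2F1 siRNA with R1881 differed from its effect with vehicle, by the test of the difference itself (edgeR's quasi-likelihood test, Benjamini-Hochberg adjusted p under 0.05). Each value is the log2 effect with R1881 minus the log2 effect with vehicle.

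Among replication and histone genes the difference was -0.89 for MCM10, -0.85 for MCM4, -0.84 for CDC6, -0.8 for TYMS, -0.76 for ORC1, -0.75 for POLD3, -0.72 for FEN1, -0.7 for MCM6 and -0.59 for RFC5. The histone genes HIST1H2AM and HIST1H4B had -1.29 and -0.73. Among mitotic, kinase, repair and chromatin genes it was -0.82 for BUB1B, -0.71 for CDK2, -0.64 for NCAPH, -0.64 for UBE2T, -0.6 for BIRC5, -0.58 for TPX2 and -0.58 for HMGB2. All these genes were called lower with R1881, and their calls for the difference held without any single library for MCM10, MCM4, CDC6, TYMS and FEN1 alone.

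Other genes with a more negative effect under R1881 had differences of -1.66 for TM4SF1, -1.31 for SERPIND1, -1.25 for the amino acid transporter SLC16A10, -1.23 for the nucleoside transporter SLC29A1, -1.17 for CBLN2, -0.79 for the lysosomal cholesterol transporter NPC1, -0.63 for SNHG15 and -0.58 for ST7. SERPIND1 was called higher with both treatments, by 1.75 with R1881 and 3.06 with vehicle.

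A more positive effect under R1881 was found for RET (2.28), DUSP27 (2.06), BST2 (2.03), MYLK (2.01), NCAPD3 (2.0), VSIG10L (1.86), ANKRD37 (1.51), IGF1R (1.01), PEG3 (0.72), TSC22D3 (0.71), TMPRSS2 (0.68), IGF2R (0.47) and ADAMTS1 (0.42). The calls for ADAMTS1, BST2, SLC29A1, SNHG15 and ST7 were each lost without 11 of the 12 libraries. Those for RET and TMPRSS2 were lost without 7, for TSC22D3 without 8, for PEG3, IGF2R and TM4SF1 without 6, for CBLN2 without 3 and for DUSP27 without 1 of the 12.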

How the results depend on the processing

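No called value changed sign under any alternative. For E2F1 siRNA against control siRNA with R1881, against 1418 genes called, 714 were called at an adjusted p under 0.01, 903 with no filter on low counts, 3022 with the replicate block, 2131 in a fit to these groups alone, 4487 with replicates 1 and 2 alone, 3652 with GC content correction and 4715 with that correction and the block, and leaving out 1 library gave 872 to 1075. RLE scaling, the CPM filter, DESeq2 and limma-voom gave 1429, 1433, 1696 and 1459. For the vehicle comparison, against 802, the same settings in the same order gave 354, 462, 1934, 17, 2864, 2379 and 3437, and 445 to 1028 without 1 library. For the difference between treatments, against 104, they gave 25, 22, 696, 21, 1844, 1213 and 2144, DESeq2 gave 350, and leaving out 1 library gave 29 to 250. For E2F1 siRNA against E2F2 siRNA, against 3648, the threshold of 0.01 gave 2128, the block 5848, replicates 1 and 2 alone 6810, GC content correction 6178 and that with the block 7346. For R1881 against vehicle, against 4105, the threshold gave 2666, the block 6392, the fit to these groups alone 1842, replicates 1 and 2 alone 7205, GC content correction 6775 and that with the block 7877. The cause of these differences was not tested. Of 192 called named genes, the block lost 0, DESeq2 1, limma-voom 3, no filter 32, the threshold of 0.01 44, and a left-out library 23 to 40. Beside the values given with the results, the pairing of replicates by number changed the call of no gene named as called. GC correction and the use of replicates 1 and 2 were chosen after seeing the data. With 3 libraries per group, a gene that was not called may still have changed.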
